A study of Mus musculus with 10 samples.

Results

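The T cell receptor passes its signal through a small set of membrane and membrane-proximal proteins, and the transcripts of 9 of their genes are described here: the CD3 chains Cd3d, Cd3e, Cd3g and Cd247, the CD8 co-receptor chains Cd8a and Cd8b1, the kinases Lck and Zap70, and the adaptor Lat. The 9 genes were chosen by name and not by a cut-off on their values, though earlier results of these data were known. They came out of 53465 genes counted in every library, and all 9 passed the filter on low counts that left 13182 genes for testing. The cells were CD8 T cells of C57BL/6 OT-I mice, whose transgenic receptor recognises the ovalbumin peptide SIINFEKL on a class I MHC molecule. They came from spleens and peripheral lymph nodes, were activated in 25 mM glucose with that peptide plus interleukin-2, and went to 1 mM glucose after 3 days. The label d5 stands for 24 h of restriction and d9 for 120 h, and 5 mM sodium acetate was present or absent for the last day. The sum of 3 days and 1 or 5 days does not give the labelled day 5 or 9. All groups carried the OT-I receptor, were kept in interleukin-2 and 1 mM glucose, and were restimulated for 4 h with phorbol ester (PMA) and ionomycin before polyadenylated RNA was sequenced. Each d5 group, with and without acetate, held 2 libraries, and each d9 group held 3. Cells kept in 25 mM glucose were not analysed here.

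As background, the alpha and beta chains of the receptor bind peptide and MHC but have almost no cytoplasmic part, so signalling runs through the CD3 delta, epsilon, gamma and zeta chains, whose cytoplasmic tails carry tyrosine motifs. CD8 binds class I MHC and brings the kinase LCK to the complex, LCK phosphorylates the CD3 tails, ZAP-70 docks there and phosphorylates the adaptor LAT, and LAT gathers the enzymes that raise calcium and activate protein kinase C and RAS. PMA and ionomycin act downstream of these proteins, so the 4 h restimulation did not pass through the receptor complex itself.

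Libraries held 16.59 to 24.66 M counts, and replicates differed by more than sampling noise (chi-square per degree of freedom from 5.60 to 70.3). No label says that the replicates were separate cultures or animals, so p-values here cover the spread among these libraries alone, and that spread may be technical. Days separated along the first principal component (66.2% of variance). On the second component (11.4%) 2 d9 libraries, replicate 1 without acetate and replicate 2 with acetate, stood apart from the other d9 libraries. Ribosomal protein genes took 15.4 and 15.1% of their counts, against 11.2 to 12.7% in the other d9 libraries and 10.8 to 14.0% at d5. The beta chain segment Trbv12-1 held 98.59 to 99.80% of the counts of beta variable segments in every library. Alpha variable segments held only 354 to 1321 counts per library over 108 segments, of which Trav21-dv12 took 11.78 to 20.33% and Trav14-3, the highest of several like-named copies of Trav14, 3.53 to 7.83%. Cd4, which marks the other main T cell class, was at most 1.70 CPM (counts relative to library size, scaled by TMM factors), against 306 CPM or more for Cd8a. In the rest of the CD4 T cell list Foxp3 was at most 0.112 CPM, Zbtb7b ran from 106 to 163 CPM and Ctla4 from 33.2 to 194 CPM. The sum of that list was 168 CPM in both d5 libraries without acetate, 224 and 256 CPM with acetate, 172 to 243 CPM at d9 without acetate and 225 to 358 CPM with it, so it was higher with acetate at d5 without overlap, and its part in the acetate comparisons was not tested. Of 4 NK cell markers 3 passed the filter on low counts (Klrb1c, Eomes and Fcer1g, while Ncr1 was at most 0.263 CPM), and the summed level of the list was 11.4 to 16.0 CPM at d5 and 58.7 to 88.0 CPM at d9. Of 4 dendritic cell markers Zbtb46 and Itgax passed, with Flt3 at most 0.168 CPM and Siglech at 0. The sum was 19.2 to 32.1 CPM at d5 and 67.6 to 99.6 CPM at d9, nearly all of it Zbtb46. Itgax ran from 1.60 to 3.39 CPM, and its mean was higher at d9 without acetate and lower at d9 with it. Of the B cell markers, Ighm ran from 139.7 to 203 CPM at d5 and from 77.3 to 118 CPM at d9, while Cd79a was at most 0.421, Ms4a1 at most 0.175 and Igkc at most 0.350 CPM. The NK cell sum and Zbtb46, which carried the dendritic cell sum, were higher and Ighm lower at d9 without overlap. At d5 the NK cell sum was also higher with acetate without overlap (15.4 to 16.0 against 11.4 to 13.6 CPM), though Eomes within it was lower. So were Zbtb46 (28.1 to 30.0 against 16.4 to 23.5 CPM) and Ighm (196 to 203 against 139.7 to 171 CPM). At d9 the NK cell sum was again higher with acetate without overlap (69.7 to 88.0 against 58.7 to 67.5 CPM), while Zbtb46 and Ighm overlapped. Their part in the day and acetate comparisons below was not tested. Macrophage markers summed to at most 1.96 CPM, with C1qa at 0. In bulk RNA, fewer cells of a type and less RNA per cell cannot be told apart.

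Per kilobase of annotated exon, averaged over 10 libraries, Lat was the most abundant of the 9 transcripts at 297 CPM per kb, rank 166 of 11441 protein-coding genes. Cd3d followed at 277, Cd8b1 at 200.5, Lck at 199, Cd8a at 154, Zap70 at 125, Cd3g at 77.1, Cd247 at 54.9 and Cd3e at 44.0 CPM per kb. Even Cd3e, the lowest, ranked 1184, within the top 10.3%. All 9 were thus among the more abundant transcripts of these cells on this scale. The order depended on the length used, since the longest coding transcript gave 665 CPM per kb for Lat, 246 for Cd3g, 123 for Cd3e and 99.0 for Cd247, with Cd247 then the lowest.

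**Figure D1:**
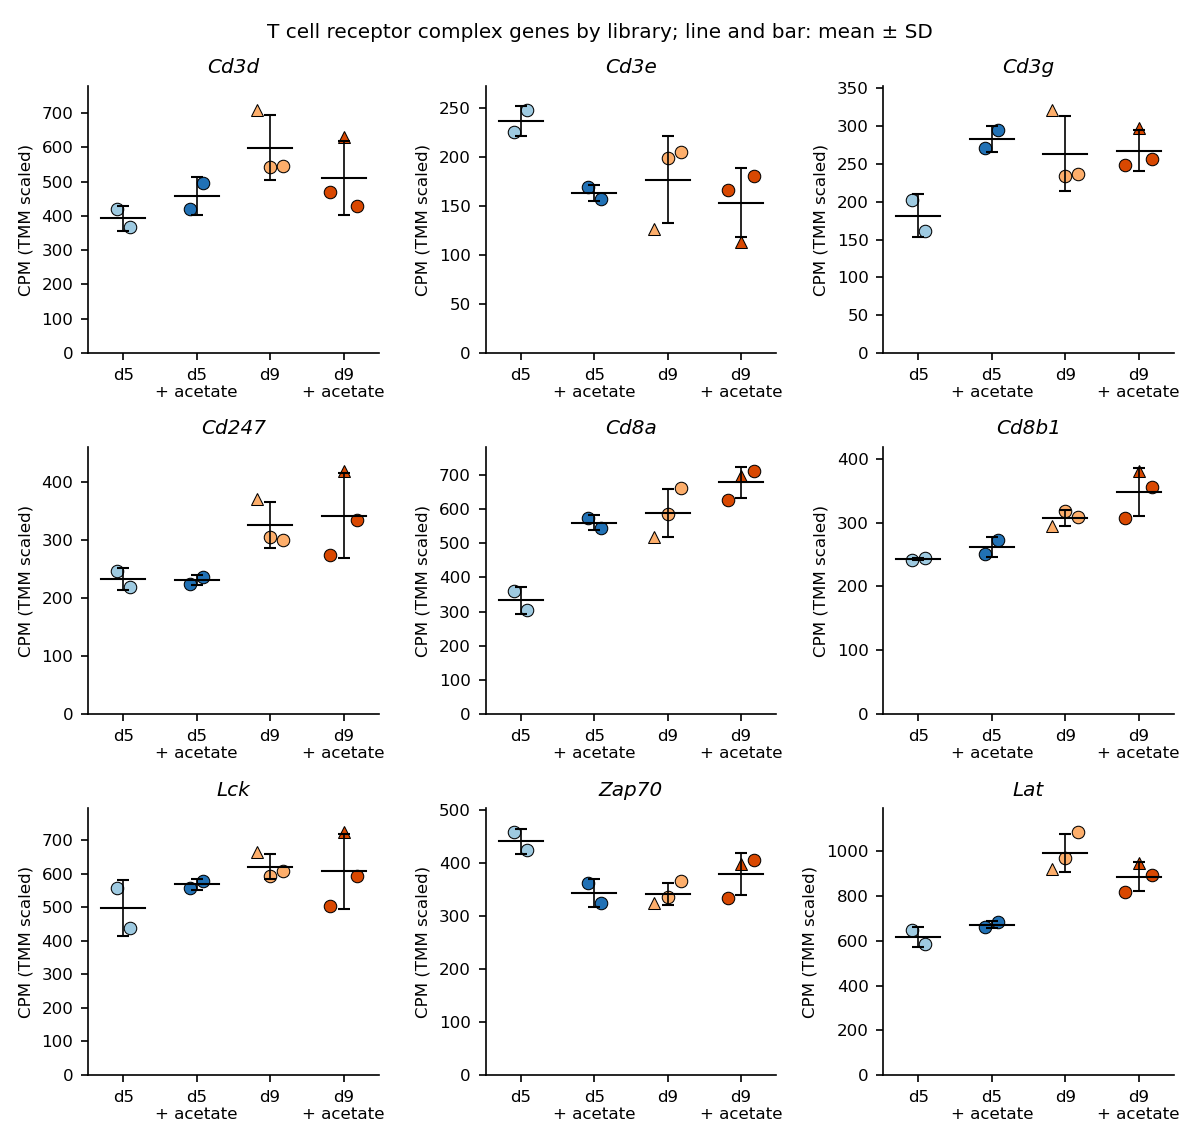
Level of each of the 9 genes in every library (CPM scaled by TMM factors, linear axis from 0), by day and acetate; points are libraries, triangles the 2 d9 libraries that stood apart, lines and bars the mean ± SD. Cd8a sat at 306 to 360.4 CPM at d5 without acetate and at 519 CPM or above in every other library, while Zap70 and Cd3e were highest at d5 without acetate.

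The 3 CD3 genes Cd3g, Cd3d and Cd3e lie side by side on chromosome 9 in GRCm38. Cd3g (ENSMUSG00000002033, 44969572 to 44980431, minus strand) and Cd3d (ENSMUSG00000032094, 44981786 to 44987339, plus strand) are transcribed away from each other from starts 1355 bp apart. Cd3e (ENSMUSG00000032093, 44998740 to 45009627, minus strand) starts 27841 bp from the start of Cd3d. Their promoters are shown because Cd3d and Cd3g both rose from d5 to d9 without acetate and Cd3e did not, as described below. Cd8a is shown beside them as the member called for both day and acetate. Promoter sequences of 300 bases (250 before to 50 after the start) came from RefSeq for GRCm38.p6, in which 8 of 9 members had an entry and Cd8b1 had none. Capitals mark the ETS sequence CTTCCT, or AGGAAG on the other strand, a form of the sequences that factors of the ETS family bind. The windows are chr9:44981536-44981835 (plus strand) for Cd3d, chr9:44980382-44980681 (minus strand) for Cd3g, chr9:45009562-45009861 (minus strand) for Cd3e and chr6:71373177-71373476 (plus strand) for Cd8a.
Cd3d: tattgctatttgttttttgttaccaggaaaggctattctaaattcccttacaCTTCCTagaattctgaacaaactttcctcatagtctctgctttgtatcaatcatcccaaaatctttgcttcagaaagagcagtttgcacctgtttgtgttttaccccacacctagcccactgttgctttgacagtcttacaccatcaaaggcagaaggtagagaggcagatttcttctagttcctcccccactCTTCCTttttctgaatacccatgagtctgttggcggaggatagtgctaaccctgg
Cd3g: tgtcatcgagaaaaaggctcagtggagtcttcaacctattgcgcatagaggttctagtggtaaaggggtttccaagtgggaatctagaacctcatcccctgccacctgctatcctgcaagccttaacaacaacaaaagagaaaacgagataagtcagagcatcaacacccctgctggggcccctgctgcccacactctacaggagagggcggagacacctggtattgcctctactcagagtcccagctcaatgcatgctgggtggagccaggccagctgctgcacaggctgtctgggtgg
Cd3e: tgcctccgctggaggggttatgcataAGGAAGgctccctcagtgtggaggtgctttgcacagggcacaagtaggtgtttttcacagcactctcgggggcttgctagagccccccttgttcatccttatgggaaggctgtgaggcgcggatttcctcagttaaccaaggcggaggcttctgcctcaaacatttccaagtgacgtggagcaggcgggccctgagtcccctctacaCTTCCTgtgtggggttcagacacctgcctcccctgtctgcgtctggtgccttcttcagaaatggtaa
Cd8a: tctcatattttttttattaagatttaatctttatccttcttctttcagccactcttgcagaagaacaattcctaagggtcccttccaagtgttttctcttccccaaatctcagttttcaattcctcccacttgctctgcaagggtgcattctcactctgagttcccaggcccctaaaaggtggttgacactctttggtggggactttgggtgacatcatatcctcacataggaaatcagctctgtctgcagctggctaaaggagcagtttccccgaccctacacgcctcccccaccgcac
This ETS sequence was found 2 times in the Cd3d window, at 198 and 5 bases before the start. In the Cd3e window it was found 2 times, at 224 and 17 bases before the start, and it was not in the Cd3g or Cd8a windows. Only the full sequence was searched, and its inner part GGAA does occur in the Cd3g and Cd8a windows. Over all 32851 promoter entries, 35.4% held the full sequence. The RUNX motif TGTGGT and the TATA box TATAAA, searched on both strands, were in none of the 4 windows, against 16.8% and 13.6% of all entries. The E-box CANNTG occurred 1 time for Cd3d, 4 for Cd3g, 2 for Cd3e and 3 for Cd8a, and in 72.3% of all entries. A match is a description of letters, not a bound site, and the neighbours Cd3d and Cd3g did not share the full ETS sequence searched.

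Between d5 and d9 without acetate, 7 of the 9 genes passed the threshold (adjusted p under 0.05, edgeR's quasi-likelihood test with Benjamini-Hochberg adjustment over all tested genes): Cd8a, Lat, Cd3d, Cd3g, Cd247 and Cd8b1 rose and Zap70 fell. The d9 cells had been restricted longer and had also been longer in culture with interleukin-2, and these cannot be told apart. Of all tested genes 37.1% were called in this comparison, 15.9% higher and 21.2% lower. The median log2 fold change of the 9 genes was 0.48, beside -0.01 over all tested genes. With acetate present on the last day of both times, 3 of 9 rose (Cd247, Cd8b1 and Lat) and none fell, beside 41.6% called among all genes, 18.5% higher. There the median of the 9 was 0.16, beside -0.01 over all genes. In libraries, 9 of 9 genes did not overlap between d5 and d9 without acetate (7 higher, 2 lower), against 63.1% of all tested genes (29.7% higher and 33.4% lower). With acetate 4 of 9 did not overlap, all higher, against 62.5% (29.1% higher and 33.4% lower). Without the 2 d9 libraries that stood apart, 8 genes passed without acetate, Cd3e being the added one, beside 46% of all genes. The same 3 passed with acetate, beside 51.5% of all genes. Scaled by library size alone, which moves the median of all genes to -0.11 in both day comparisons, 3 and 1 passed, beside 36.4% and 40.4% of all genes.

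Fewer of these genes passed for acetate. At d5 Cd8a alone passed and rose, 1 of 9 beside 1.52% of all genes called, and at d9 none passed, beside 0.0303% of all genes (4 genes). At d9 none of the 9 had an unadjusted p under 0.05 in edgeR, beside 15.4% of all genes (2026 genes). DESeq2 and limma-voom called none of the 9 either, beside 2.56% and 0.0303% of all genes. Averaged over both days, Cd8a again was the gene that passed, beside 5.89% of all genes called, 3.35% higher and 2.54% lower. Members not overlapping between acetate and no acetate were 6 of 9 at d5 (Cd3g, Cd8a, Cd8b1 and Lat higher, Cd3e and Zap70 lower), against 59% of all genes (29.8% higher and 29.2% lower), and 0 of 9 at d9, against 18.7% (9.9% higher and 8.79% lower). The difference between the acetate effects at d9 and at d5 passed for no member and for no gene in edgeR. Its unadjusted p was under 0.05 for 3 of the 9 members, beside 7.7% of all genes (1015 genes). DESeq2 called 102 genes (0.774%) for that difference, no member among them, and limma-voom called 0. The acetate and day comparisons share libraries (d5 without acetate enters both), so their values are set side by side and not counted as separate support.

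**Figure D2:**
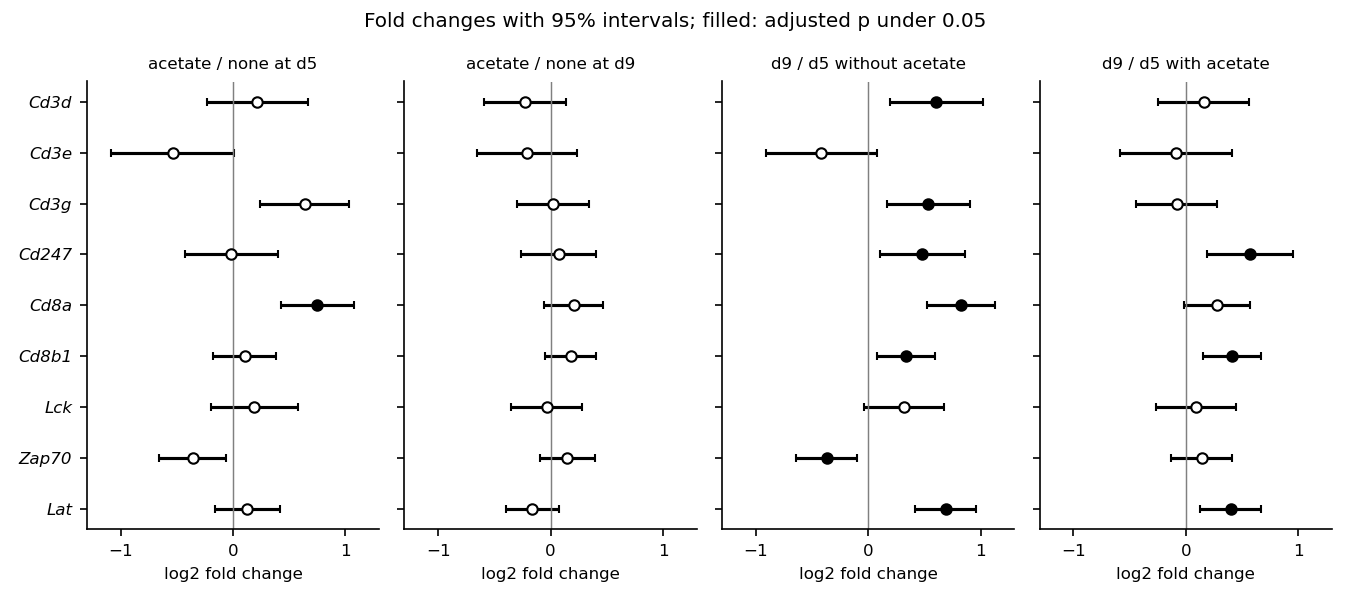
Log2 fold change of each gene in 4 comparisons, with 95% confidence intervals from the edgeR fit; filled points passed the adjusted threshold, and a value above 0 is higher with acetate (2 left panels) or at d9 (2 right panels). At d5 acetate has 1 filled point, Cd8a at 0.75; at d9 it has none; the day panels have 7 without acetate and 3 with it.

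Cd3d encodes CD3 delta, which pairs with CD3 epsilon in the complex. It stood at 419.6 and 368 CPM at d5 without acetate, 419 and 496 CPM at d5 with acetate, 708, 543 and 545 CPM at d9 without acetate, and 469.8, 632 and 429.8 CPM at d9 with acetate. Every d9 library without acetate lay above both d5 libraries without it, and the acetate groups overlapped. The d9 means were 599 ± 94.9 CPM without acetate and 510.4 ± 107 with it (SD, n = 3), and the d5 means 394 ± 36.8 and 458 ± 54.8 (SD, n = 2). Without acetate Cd3d rose 1.52-fold from d5 to d9 (log2 0.60 ± 0.19, SE, 95% interval 0.19 to 1.02, adjusted p = 0.0273). With acetate the day difference was 0.16 ± 0.18 (adjusted p = 0.516). The acetate difference was 0.22 ± 0.20 at d5 and -0.23 ± 0.16 at d9, neither past the threshold. The rise without acetate missed the threshold without d9 replicate 1 (log2 0.49, adjusted p = 0.0557) and without either d5 library of that state (0.70 without replicate 1, adjusted p = 0.0785, and 0.52 without replicate 2, adjusted p = 0.176), and by library size alone (0.50, adjusted p = 0.0570). When 1 of 2 d5 libraries was left out, the other was assumed to vary like the other groups.

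Cd3g encodes CD3 gamma, the other partner of CD3 epsilon. It was 202 and 162 CPM at d5 without acetate, 271 and 295 CPM at d5 with acetate, 321, 233 and 236 CPM at d9 without acetate, and 248, 298 and 256 CPM at d9 with acetate. The d5 libraries without acetate were the lowest 2 of the 10, and the other 3 groups overlapped. Group means were 182 ± 28.1, 283 ± 16.6, 263 ± 49.7 and 267 ± 26.7 CPM in that order, the last 3 within the spread of each other. Without acetate Cd3g rose 1.45-fold by d9 (log2 0.54 ± 0.17, 95% interval 0.17 to 0.90, adjusted p = 0.0273), and this call was lost without d5 replicate 2 (0.39, adjusted p = 0.218), by library size alone (0.43, adjusted p = 0.0639) and in a fit of the libraries without acetate (0.53, adjusted p = 0.0532). At d5 the acetate libraries were 1.56-fold higher (0.64 ± 0.18, 95% interval 0.24 to 1.04), which did not pass (adjusted p = 0.103). That difference passed with the DESeq2 Wald test (0.66, adjusted p = 0.0319), with no filter beyond 1 count (0.64, adjusted p = 0.0168) and in a fit of the 4 d5 libraries alone (0.63, adjusted p = 0.0170). It also passed without d9 replicate 1 of the state without acetate (0.64, adjusted p = 0.0384) and without both libraries that stood apart (0.64, adjusted p = 0.00406). At d9 the acetate difference was 0.02 ± 0.15 (adjusted p = 0.967), with an interval of -0.30 to 0.34. Without the 2 libraries that stood apart, the rise without acetate was 0.35. Cd3g had the lowest GC content of the 9 (38.5% of the bases of its longest transcript). With trends on transcript length and GC removed, its day difference was 1.19 without acetate and turned from -0.08 to 0.78 with acetate (adjusted p = 0.000782).

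Cd3e encodes CD3 epsilon, the chain shared by both CD3 pairs. It was 226 and 248 CPM at d5 without acetate, 169.5 and 158 CPM at d5 with acetate, 126, 199.6 and 206 CPM at d9 without acetate, and 166, 114 and 181 CPM at d9 with acetate. The d5 libraries without acetate were the highest 2, and the other groups overlapped one another. Group means were 237 ± 15.6, 164 ± 8.47, 177 ± 44.1 and 154 ± 35.2 CPM. No comparison passed: -0.53 ± 0.25 for acetate at d5 (95% interval -1.08 to 0.01, adjusted p = 0.260), -0.21 ± 0.20 at d9 (0.679), -0.42 ± 0.22 for day without acetate (0.164) and -0.09 ± 0.22 with it (0.768). The largest gaps within groups fell on the 2 libraries that stood apart, where Cd3e was 0.68 and 0.61 lower on the log2 scale than in the other 2 libraries of the group. In the same libraries Cd3d was higher by 0.38 and 0.49, Cd3g by 0.45 and 0.24 and Cd247 by 0.30 and 0.47. Their share of ribosomal protein counts was higher too, and its part in these levels was not tested. Without them Cd3e was lower with acetate at d5 (-0.53, adjusted p = 0.00410) and lower at d9 without acetate (-0.25, adjusted p = 0.0495), and a fit of the 4 d5 libraries alone gave -0.54 for acetate (adjusted p = 0.0149). Without d9 replicate 1 of the state without acetate alone, the acetate difference averaged over days also passed for Cd3e (-0.46, adjusted p = 0.0403) and Cd3g (0.42, adjusted p = 0.0221), against -0.37 (0.179) and 0.33 (0.116) with all libraries. Exons of Cd3e overlap 135 bases of the antisense gene Gm48719, and since the sources used here do not say whether counting used strand, reads of that stretch could not be told apart.

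Cd247 encodes CD3 zeta, the chain with the most tyrosine motifs in the complex. It lies apart from the other CD3 genes on chromosome 1 (ENSMUSG00000005763, 165788681 to 165877277, plus strand). It was 246 and 219 CPM at d5 without acetate, 224 and 237 CPM at d5 with acetate, 371, 304 and 299.6 CPM at d9 without acetate, and 274, 418 and 334 CPM at d9 with acetate. All 6 d9 libraries lay above all 4 d5 libraries. Group means were 233 ± 19.5 and 230.4 ± 8.83 CPM at d5 (SD, n = 2) and 325 ± 39.8 and 342 ± 72.5 CPM at d9 (SD, n = 3), so that the order followed the day and not acetate. Cd247 rose 1.40-fold without acetate (log2 0.48 ± 0.17, 95% interval 0.10 to 0.86, adjusted p = 0.0486) and 1.48-fold with it (0.57 ± 0.17, 95% interval 0.19 to 0.95, adjusted p = 0.0228). The acetate difference was -0.01 ± 0.19 at d5 (95% interval -0.43 to 0.40) and 0.07 ± 0.15 at d9 (-0.26 to 0.41). The call without acetate sat at the threshold and was lost without any single library other than replicates 1 and 2 of d9 with acetate (log2 0.40 to 0.57, adjusted p 0.0615 to 0.249), by library size alone (0.38, adjusted p = 0.0963) and with the filter of 2 CPM (0.46, adjusted p = 0.0599). The call with acetate was lost without d5 acetate replicate 1 (0.54, adjusted p = 0.123) or replicate 2 (0.62, adjusted p = 0.0826). Exons of Cd247 overlap 3007 bases of Pou2f1 on the opposite strand and 206 bases of Gm16565 on the same strand, so its counts are uncertain to that extent.

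Cd8a, which encodes CD8 alpha, was the member that passed for acetate, and it also rose by day without acetate. It lies on chromosome 6 (ENSMUSG00000053977, 71373427 to 71379173, plus strand), 50639 bp from the start of Cd8b1 (ENSMUSG00000053044, 71322788 to 71337494, plus strand). Cd8a was 360.4 and 306 CPM at d5 without acetate, 575 and 545 CPM at d5 with acetate, 519, 586 and 661 CPM at d9 without acetate, and 628, 696 and 711 CPM at d9 with acetate. Means ran in the order d5 (333 ± 38.8), d5 with acetate (560.3 ± 21.3), d9 (589 ± 70.9) and d9 with acetate (678 ± 44.3), with the middle 2 within the spread of each other and the last 2 overlapping. The d5 libraries without acetate lay below every library of the other groups. With acetate at d5 Cd8a rose 1.68-fold (log2 0.75 ± 0.15, 95% interval 0.43 to 1.07, adjusted p = 0.0385, higher in 2 of 2 libraries). At d9 the acetate difference was 0.20 ± 0.12 (95% interval -0.06 to 0.47, adjusted p = 0.459). The difference between these effects was -0.55 ± 0.19 (unadjusted p = 0.0147, adjusted p = 0.511) and did not pass. Averaged over days, Cd8a rose 1.39-fold with acetate (0.48 ± 0.09, adjusted p = 0.0218).

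From d5 to d9 Cd8a rose 1.77-fold without acetate (log2 0.82 ± 0.14, 95% interval 0.52 to 1.12, adjusted p = 0.00105), a call that held in all 20 alternatives (log2 0.71 to 0.95, adjusted p at most 0.0207). With acetate the day difference of Cd8a was 0.28 ± 0.13 (adjusted p = 0.120), although all 3 d9 libraries lay above both d5 libraries. The d5 acetate call of Cd8a was less firm: it held in 12 of 20 alternatives, with adjusted p from 0.000197 to 0.283. Of the 8 that ended it, 7 left out a library: it was lost without any single d5 library (log2 0.63 to 0.87, adjusted p 0.154 to 0.283), and without d9 replicate 2 or 3 of the state without acetate (0.75 and 0.75, adjusted p = 0.0756 and 0.0606) or d9 acetate replicate 3 (0.75, adjusted p = 0.0554). The averaged call of Cd8a was lost without any single d5 library (0.42 to 0.54, adjusted p 0.0711 to 0.115) and without d9 replicate 2 of the state without acetate (0.48, adjusted p = 0.0661).

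Cd8b1 encodes CD8 beta, the partner of CD8 alpha in the heterodimer of conventional CD8 T cells. It was 242 and 245 CPM at d5 without acetate, 250.3 and 273 CPM at d5 with acetate, 294, 319 and 308 CPM at d9 without acetate, and 307, 381 and 355 CPM at d9 with acetate. All d9 libraries lay above all d5 libraries, and means ran 243 ± 1.74, 261 ± 15.7, 307 ± 12.4 and 348 ± 37.5 CPM. The rise by d9 was 1.26-fold without acetate (log2 0.34 ± 0.12, 95% interval 0.08 to 0.59, adjusted p = 0.0437) and 1.33-fold with it (0.41 ± 0.12, 95% interval 0.15 to 0.67, adjusted p = 0.0169). Acetate differences were 0.10 ± 0.13 at d5 (95% interval -0.18 to 0.38) and 0.18 ± 0.10 at d9 (-0.05 to 0.41), and neither passed. The call without acetate was lost without any single library other than d9 replicate 1 of that state and d9 acetate replicates 1 and 2 (log2 0.30 to 0.35, adjusted p 0.0562 to 0.185), by library size alone (0.23, adjusted p = 0.132) and with no filter beyond 1 count (0.38, adjusted p = 0.0576). The call with acetate was lost without d5 acetate replicate 1 (0.36, adjusted p = 0.132) or replicate 2 (0.48, adjusted p = 0.0528), by library size alone (0.31, adjusted p = 0.0505) and in a fit of the acetate libraries alone (0.42, adjusted p = 0.0544). Cd8b1 with trends on length and GC removed was 0.28 without acetate (adjusted p = 0.0596).

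Lck, the SRC family kinase bound to the CD8 tail, showed no change that passed. It lies on chromosome 4 (ENSMUSG00000000409, 129548344 to 129573641, minus strand). It was 558 and 439 CPM at d5 without acetate, 558 and 580.0 CPM at d5 with acetate, 664, 592 and 608 CPM at d9 without acetate, and 503, 724 and 593 CPM at d9 with acetate. The 3 d9 libraries without acetate lay above both d5 libraries without it, by 0.32 ± 0.16 on the log2 scale (95% interval -0.04 to 0.68, adjusted p = 0.146), and the groups overlapped in the other 3 comparisons. With acetate the day difference of Lck was 0.09 ± 0.16 (adjusted p = 0.664), and the acetate differences were 0.19 ± 0.18 at d5 (95% interval -0.20 to 0.58) and -0.03 ± 0.14 at d9 (-0.35 to 0.28). A change of Lck as large as that of Cd8a by d9 without acetate (0.82) lay outside all 4 Lck intervals.

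Zap70 encodes the kinase that docks on phosphorylated CD3 tails, and it was the member that fell. It lies on chromosome 1 (ENSMUSG00000026117, 36761798 to 36782818, plus strand). Zap70 was 459 and 425 CPM at d5 without acetate, 363 and 325 CPM at d5 with acetate, 324, 336 and 366 CPM at d9 without acetate, and 334, 399 and 406 CPM at d9 with acetate. As with Cd3e, the d5 libraries without acetate were the highest 2, and the other 3 groups overlapped (means 442 ± 24.0, then 344 ± 26.8, 342 ± 21.4 and 379 ± 39.6 CPM). By d9 without acetate it was 1.29-fold lower (log2 -0.37 ± 0.12, 95% interval -0.64 to -0.10, adjusted p = 0.0352), and with acetate the day difference was 0.14 ± 0.12 (adjusted p = 0.380). Acetate at d5 gave -0.36 ± 0.13 (95% interval -0.66 to -0.06, adjusted p = 0.186), which passed without the 2 libraries that stood apart (-0.36, adjusted p = 0.0495), and at d9 0.15 ± 0.11 (adjusted p = 0.559). The difference of those effects was 0.51 ± 0.17 (unadjusted p = 0.0138, adjusted p = 0.508). The fall of Zap70 held in 12 of 20 alternatives. It was lost without any single d5 library (log2 -0.42 to -0.31, adjusted p 0.0530 to 0.203) and without d9 replicate 1 or 2 of the state without acetate (-0.31 and -0.36, adjusted p = 0.0834 and 0.0936). It was also lost with DESeq2 size factors (-0.34, adjusted p = 0.0540) and with no filter beyond 1 count (-0.32, adjusted p = 0.125). It was -0.63 with length and GC trends removed.

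Lat, the adaptor that ZAP-70 phosphorylates, rose by d9 in both acetate states. It lies on chromosome 7 (ENSMUSG00000030742, 126363824 to 126369570, minus strand). Lat was 647 and 584 CPM at d5 without acetate, 662 and 684 CPM at d5 with acetate, 920.2, 970.0 and 1086 CPM at d9 without acetate, and 818, 949 and 895 CPM at d9 with acetate. Every d9 library exceeded every d5 library, and within a day the acetate groups differed by less than the days did (means 616 ± 44.6, 673 ± 15.3, 992 ± 85.1 and 887 ± 65.7 CPM). The rise was 1.61-fold without acetate (log2 0.69 ± 0.12, 95% interval 0.42 to 0.96, adjusted p = 0.00164) and held in all 20 alternatives (adjusted p at most 0.0276), at 0.44 with length and GC trends removed. With acetate it was 1.32-fold (0.40 ± 0.12, 95% interval 0.13 to 0.67, adjusted p = 0.0237). This second call was lost without d5 acetate replicate 1 (0.38, adjusted p = 0.132) or replicate 2 (0.43, adjusted p = 0.0942), without d9 acetate replicate 3 (0.39, adjusted p = 0.0570), by library size alone (0.29, adjusted p = 0.0710), in a fit of the acetate libraries alone (0.41, adjusted p = 0.0554), and with length and GC trends removed (0.11, adjusted p = 0.388). Acetate differences of Lat were 0.13 ± 0.13 at d5 and -0.16 ± 0.11 at d9 (95% interval -0.40 to 0.08).

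**Figure D3:**
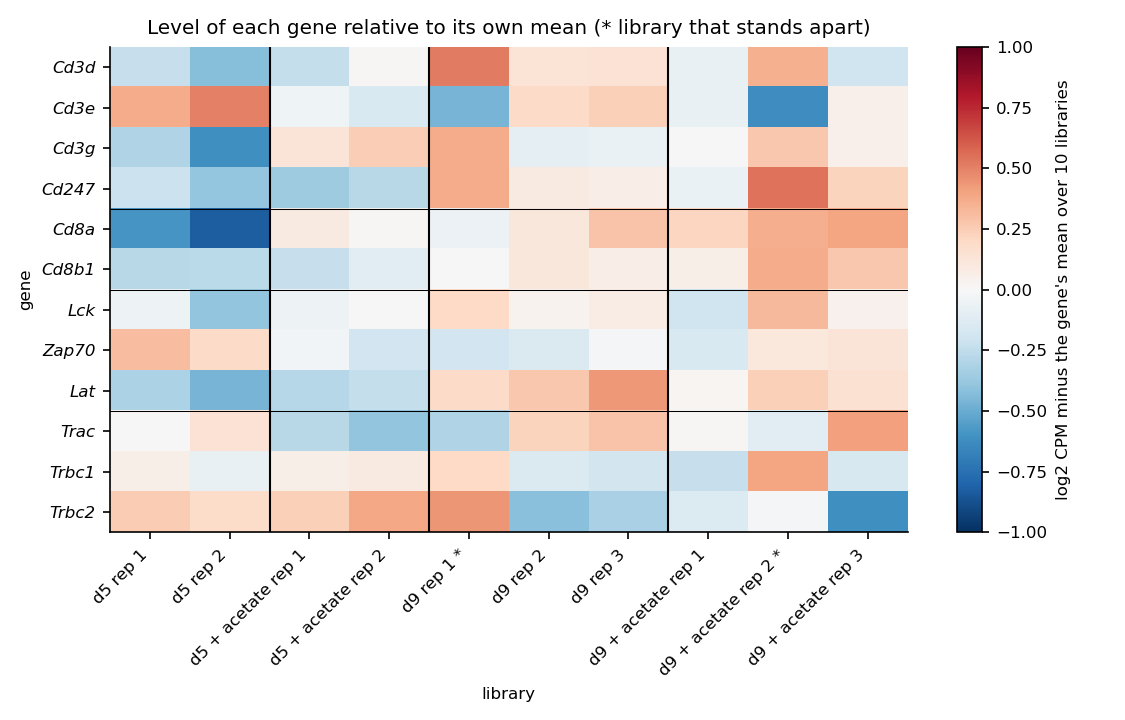
Log2 CPM of the 9 genes and of 3 receptor constant genes minus each gene's mean over 10 libraries, 1 column per library; red is above and blue below the mean, and asterisks mark the 2 d9 libraries that stood apart. In those 2 columns Cd3d, Cd3g, Cd247 and Trbc1 are above and Cd3e and Trac below the other 2 libraries of their group.

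The constant segments of the receptor's own chains passed in no comparison. Trac, the alpha chain constant segment, was 305 and 336 CPM at d5 without acetate, 251 and 231 with acetate, 246, 354 and 369.8 at d9 without acetate, and 307, 282 and 403 with acetate. The beta chain segments Trbc1 and Trbc2 are near-identical copies, so the split of reads between them is uncertain. Trbc1 ranged from 339 to 525 CPM and Trbc2 from 671 to 1398 CPM over the 10 libraries. From d5 to d9 without acetate Trac differed by 0.01 (adjusted p = 0.961), Trbc1 by -0.03 (0.919) and Trbc2 by -0.26 ± 0.25 (0.436). With acetate the day values were 0.46 ± 0.19 for Trac (0.0812), -0.04 for Trbc1 (0.874) and -0.55 ± 0.25 for Trbc2 (0.0977). In the 2 d9 libraries that stood apart Trac was lower than in the rest of its group by 0.56 and 0.32 on the log2 scale and Trbc2 higher by 0.81 and 0.36, and Trbc1 higher by 0.37 and 0.60.

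Ratios of partner transcripts within a library do not depend on how libraries are scaled to each other. Trends on length and GC that differ between libraries were not removed from them. The ratio of Cd8b1 to Cd8a, in counts per kilobase of exon, was 1.65 and 1.96 at d5 without acetate, 1.07 to 1.23 at d5 with acetate, 1.14 to 1.39 at d9 without acetate and 1.20 to 1.34 at d9 with acetate. The 2 d5 libraries without acetate thus stood above the other 8. The acetate difference in log2 ratio was -0.65 at d5 and -0.04 at d9 (mean -0.34, exact two-sided permutation test within days, p = 0.15, adjusted over 6 ratio tests 0.2). The ratio of Cd3g to Cd3d was higher with acetate, by 0.43 at d5 and 0.27 at d9 on the log2 scale (mean 0.35, 1.28-fold), with no overlap between acetate and no acetate at either day. Its exact permutation p was 0.0167, the smallest that the 120 arrangements allow, and its adjusted value 0.09 did not pass. The longest transcripts of these genes differ in GC content (38.5% for Cd3g, 50% for Cd3d). Once length and GC trends were removed, the acetate difference of Cd3g at d9 was -0.10, and this ratio was not tested in that setting. The ratio of Cd247 to Cd3e ran from 0.676 to 0.835 at d5 without acetate to 1.12 to 2.25 at d9 without acetate, and from 1.01 to 1.15 to 1.26 to 2.81 with acetate. Its day difference was 0.93 without and 0.66 with acetate (exact permutation p = 0.03, adjusted 0.09), and the highest 2 values were those of the 2 libraries that stood apart. No ratio passed after adjustment over 6 tests. The smallest exact permutation p possible was 0.0167 for acetate and 0.01 for day, so no ratio could have passed alone. Not passing is therefore not read as absence of a difference.

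**Figure D4:**
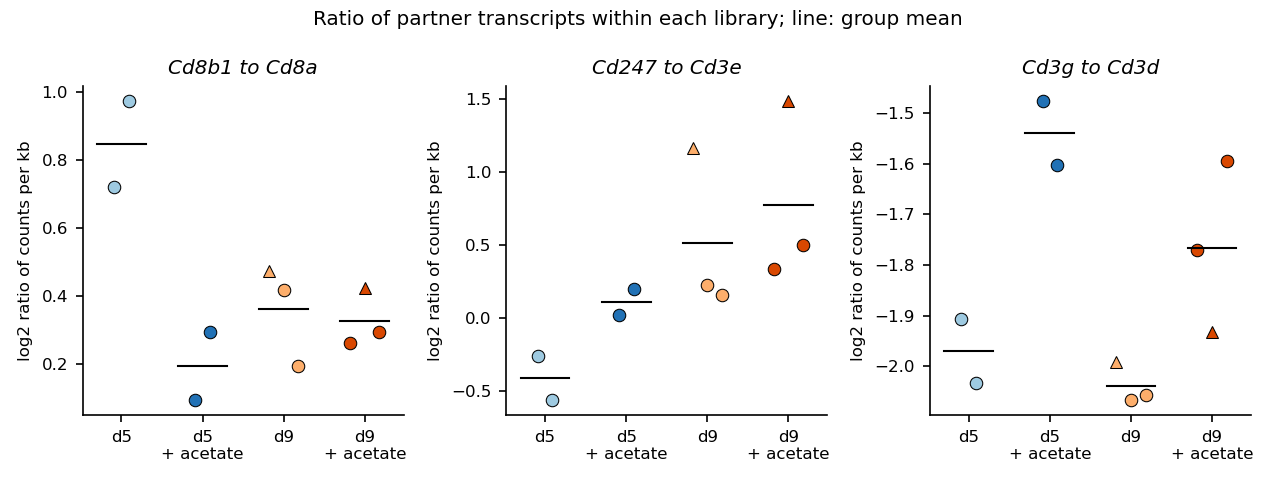
Log2 ratio of counts per kilobase for 3 partner pairs in every library, with lines at the group means; triangles are the 2 d9 libraries that stood apart. Cd8b1 to Cd8a is highest in the 2 d5 libraries without acetate (mean 0.85, against 0.19 with acetate), and the 2 triangles are the highest points for Cd247 to Cd3e.

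Of 64 other genes of T cell receptor signalling, listed by role, 63 were tested. Between d5 and d9 without acetate 21 rose and 14 fell (55.6%, beside 37.1% of all genes), with a median log2 fold change of 0.21. With acetate 23 rose and 10 fell (52.4%, beside 41.6%), with a median of 0.38. Scaled by library size alone the split without acetate was 13 up and 17 down (beside 36.4% of all genes called), and with acetate 19 and 11 (40.4%). In the main fit 15.9% of all genes were called higher and 21.2% lower without acetate, and 18.5% and 23.1% with it. Beside these shares, kinases other than Lck and Zap70 rose in 4 of 7 without acetate and 2 of 7 with it, and none of these few fell. The TEC family kinase Txk went from 13.6 ± 0.349 to 32.0 ± 3.93 CPM without acetate (log2 1.24 ± 0.16) and from 13.3 ± 2.63 to 37.4 ± 0.965 CPM with it (1.49 ± 0.16). Of 16 adaptors and scaffolds tested, 7 rose and 4 fell without acetate and 9 rose and 3 fell with it. Among the genes that rose were the adaptor Lax1 (1.42 ± 0.20 without acetate), the LCK-binding protein gene Unc119 (1.47 ± 0.13), Fyb (0.89 ± 0.30 without and 1.34 ± 0.31 with acetate), Sh2d2a, an LCK-binding adaptor (1.31 ± 0.14 with acetate), and Sla2, an adaptor that dampens receptor signalling (0.98 ± 0.17 with acetate). Among those that fell were Tespa1 (-1.73 ± 0.19 and -1.68 ± 0.19), needed for thymocyte signalling, and Ptprc, which encodes the phosphatase CD45 that activates LCK, from 706 ± 54.2 to 292 ± 31.6 CPM (-1.27 ± 0.18) and from 771 ± 151 to 347 ± 70.3 CPM (-1.15 ± 0.18). Themis fell by day in both states (-1.07 ± 0.21 and -1.11 ± 0.21), Cd5, an inhibitory surface receptor, fell without acetate (-0.92 ± 0.15), and the phosphatase gene Ptpn2 fell with it (-0.91 ± 0.12). Genes given for a single state moved the same way in the other. There the d9 mean over the d5 mean was 1.94 for Lax1 and 1.93 for Unc119 with acetate, and 1.56 for Sh2d2a and 1.66 for Sla2 without it. It was 0.72 for Cd5 with acetate and 0.65 for Ptpn2 without it.

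For acetate the pathway list held no gene past the threshold at d5 or d9 in edgeR, beside 1.52% and 0.0303% of all genes. An unadjusted p under 0.05 was reached by 16 and 9 of 63, beside 19.8% and 15.4% of all genes. DESeq2 called 7 and 4, beside 5.82% and 2.56% of all genes, and limma-voom 0 and 0, beside 1.28% and 0.0303%. Nearest at d5 were Themis (1.02 ± 0.23, adjusted p = 0.0600) and Cd44 (-0.73 ± 0.17, adjusted p = 0.0634), and at d9 Malt1 (0.89 ± 0.16, adjusted p = 0.0833) and Themis (0.98 ± 0.19, adjusted p = 0.0907). Averaged over days, 2 of 63 rose (3.17%, beside 5.89% of all genes). Themis, which encodes a protein that tunes receptor signalling through SHP-1, went from 24.7 ± 3.12 to 49.9 ± 10.1 CPM at d5 and from 11.7 ± 2.28 to 23.1 ± 4.69 CPM at d9 (mean log2 1.00 ± 0.15, adjusted p = 0.00943), with all 5 acetate libraries above every library of the same day without it. Sla, which encodes an adaptor that promotes removal of the receptor complex, was the other (0.34 ± 0.08, adjusted p = 0.0375). The difference of acetate effects passed for none of the list, with Malt1 (0.93 ± 0.25, adjusted p = 0.322) and Cd44 (0.80 ± 0.22, adjusted p = 0.347) nearest. Without the 2 libraries that stood apart, pathway calls were 16 at d5, 3 at d9, 16 averaged and 8 for the difference. For day they were 44 without and 46 with acetate. Of all genes 16.7%, 1.65%, 20.6%, 1.97%, 46% and 51.5% were called in that setting, in the same order.

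**Figure D5:**
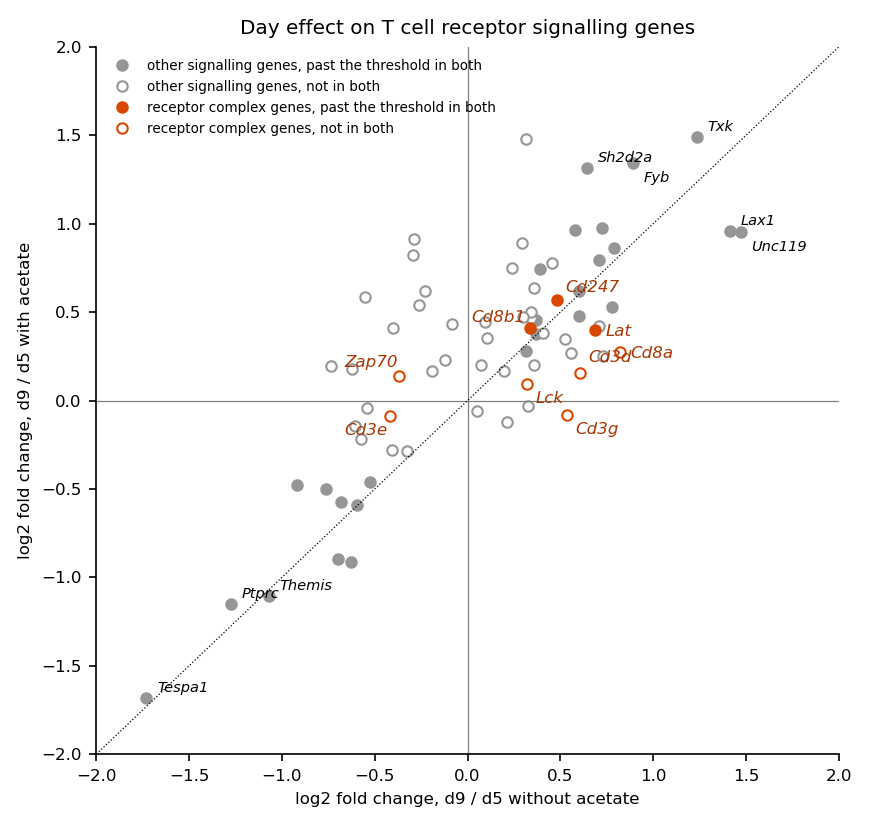
Log2 fold change from d5 to d9 without acetate (horizontal) and with acetate (vertical) for the 9 receptor complex genes (orange) and 63 other signalling genes (grey); filled points passed the threshold in both states, and the dotted line marks equal change. Cd247, Cd8b1 and Lat are the filled receptor complex genes, and Cd8a lies at 0.82 without and 0.28 with acetate.

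Members were also set against 9791 genes by likeness of pattern, as the root mean square difference of log2 CPM after each gene's mean over 10 libraries was removed, with no test. The nearest gene to Cd3d was Ech1 (0.06), to Cd3e Gltp (0.07), to Cd3g Ifi47 (0.08), to Cd247 Mterf4 (0.08), to Cd8b1 Cars (0.05), to Lck Wdr45b (0.06), to Zap70 Fbxo34 (0.07) and to Lat Cnpy3 (0.04). Cd8a was nearest to Reck (0.09) and then Tlr2 (0.11). No member was another's nearest gene. Each member's best match among the other members ranked 439 for Cd3d (Lck), 219 for Cd3g (Lck), 239 for Cd8a (Cd8b1) and 308 for Cd247 (Cd8b1). That rank was 523 for Lat (Cd8b1), 684 for Cd8b1 (Cd247), 869 for Lck (Cd3d), 1178 for Cd3e (Zap70) and 3078 for Zap70 (Lck). With so few members among 9791 genes, a nearer gene from outside is likely for any list. No conclusion on likeness within the complex is drawn from these ranks.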

How the data were processed

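The authors deposited 1 file of raw gene counts per library, and the submitters' processing notes name deepTools, STAR, featureCounts, DESeq2 and GRCm38. Versions, settings, annotation and use of strand in counting: not given in the sources used here. Libraries were stranded mRNA libraries, per the labels' protocols. All 53465 gene rows carried an identifier, of which 53360 were matched to GENCODE M21 (GRCm38).

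In edgeR 4.0.16 (R 4.3.3), filterByExpr by group kept 13182 genes and TMM set the scaling. The 4 group means were fitted without covariates by robust quasi-likelihood, leaving 6 residual degrees of freedom, with Benjamini-Hochberg adjustment over all tested genes and an adjusted p threshold of 0.05. SE is log2 fold change over the root of the F statistic, and intervals are 95% intervals from the same fit. Ratios within libraries were tested by exact two-sided permutation within day or acetate state. Depth was 16.59 to 24.66 M counts per library, and intervals cover the spread between these libraries.

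Named genes were all 9 members, Trac, Trbc1 and Trbc2, up to 4 pathway genes per direction past the threshold (or the 2 of smallest p) and the nearest genes by pattern. The members and lists were chosen with earlier results of these data known. Alternatives were DESeq2 1.42.0 (size factors, and its Wald test), library size only, other filters, limma-voom 3.58.1, a fit of the libraries compared, a replicate block and leaving out each library. Removing length and GC trends and leaving out the 2 d9 libraries that stood apart were chosen after seeing the data. The fit was tested on simulated data. Some single-gene values are left out here.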

Additional observations from a re-analysis of the deposited data

How the results depend on the processing

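With 2 or 3 libraries per group, 1 library decided many calls. Leaving out each library in turn gave 0 to 2 members called for acetate at d5, 0 to 3 averaged over days, 2 to 7 for day without acetate, 0 to 3 for day with acetate, and 0 for acetate at d9 and for the difference of acetate effects. The causes of the changes below were not tested. Members called for acetate at d5 were 2 with no filter (beside 2.49% of all genes called) and 2 with the DESeq2 Wald test (5.82%). They were 3 in a fit of the d5 libraries alone (13.9%) and 4 without the 2 d9 libraries that stood apart (16.7%). Leaving out those 2 also gave 3 averaged over days (20.6%). The main fit called 1 at d5, beside 1.52%. By library size alone 3 were called for day without (36.4%) and 1 with acetate (40.4%). A fit of the acetate libraries alone gave 1 for day (36.9%). Over all genes, 201 were called for acetate at d5, 4 at d9, 777 averaged and 0 for the difference. Counts over 1.5 times away, in that order, were 767, 337, 1442 and 102 with DESeq2, 2162, 213, 2667 and 255 without the 2 libraries, 578, 197 and 99 (not averaged) with no filter, 448, 62 and 22 (not averaged) with length and GC trends removed, and 1701 in the fit of the d5 libraries alone. Leaving out 1 library gave 0 to 498, 0 to 18, 27 to 1659 and 0 to 1, and 2803 to 5425 and 3108 to 6048 for day without and with acetate. Pathway genes called for acetate at d5, at d9 and averaged (0, 0 and 2) were 5, 3 and 5 with no filter, 7, 4 and 9 with DESeq2, 4, 0 and 7 with trends removed, and 14 at d5 in the fit of the d5 libraries; leaving out 1 library gave 0 to 3, 0 and 0 to 7, and 17 to 39 and 17 to 40 for day.

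The replicate numbers of the titles were not taken to pair the libraries, since no label says what a number shares. Between acetate states, deviations of same-numbered libraries correlated at 0.029 and 0.029 at d5 and at -0.139, -0.392 and 0.329 at d9. Between days they correlated at 0.163 and 0.113 without acetate and 0.163 and 0.221 with it, over 2 pairs each. At d9 only replicate 3 without acetate correlated best with its own number, and replicate 1 correlated best with acetate replicate 2 (0.509). In receptor segments, though, the d9 libraries numbered 1 were alike. Trdc was 53.6 and 54.1 CPM there, against 29.3 to 32.5 CPM in the other d9 libraries. Trbv12-1 was 727 and 471 CPM, against 164 to 252, and alpha variable segments held 562 and 604 counts, against 1018 to 1321. Whether same-numbered libraries share a source was not tested. With the replicate block, members called were 0 for acetate at d5, 0 at d9, 1 averaged, 5 and 2 for day without and with acetate, and 0 for the difference, and genes called were 62 for acetate at d5 and 484 averaged. The calls ended by the block were Cd8a for acetate at d5 (0.75, adjusted p = 0.0743), Cd247 (0.52, 0.0749) and Cd8b1 (0.32, 0.0709) for day without acetate and Lat (0.36, 0.0752) with it.

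Directions that turned were all of differences that had not passed. For acetate at d5, Cd247 turned to 0.0038 with DESeq2 size factors and 0.0038 with the Wald test. Averaged over days, Cd3d turned to 0.0093 with both and to 1.96e-05 with the filter of 2 CPM, and Lat to 0.000319 and 0.000306. Lck by day with acetate turned to -0.012 by library size. Without the 2 libraries, Cd3d (-0.031), Cd3e (0.082) and Lck (-0.057) turned for day with acetate and Cd8b1 (-0.0085) for the difference. With length and GC trends removed, Cd3g (-0.10) and Lck (0.0083) turned for acetate at d9, Cd247 (-0.10) and Lat (0.063) averaged, and Cd3e (0.24), Cd3g (0.78), Lck (-0.12) and Zap70 (-0.23) for day with acetate. Leaving out 1 library, Cd247 ranged from -0.10 to 0.071 at d5, -0.082 to 0.21 at d9, -0.048 to 0.098 averaged and -0.068 to 0.22 for the difference, Cd3d from -0.089 to 0.067 averaged, Lat from -0.054 to 0.021 averaged, Lck from -0.16 to 0.084 at d9, -0.0050 to 0.17 averaged and -0.019 to 0.21 by day with acetate, Cd3g from -0.055 to 0.20 at d9 and Cd3e from -0.22 to 0.12 by day with acetate. Per kilobase of the longest coding transcript the mean log2 ratio of Cd247 to Cd3e was -0.30 in place of 0.33, and that of Cd3g to Cd3d -0.33 in place of -1.84.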

Other observations

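Transcripts of other receptor segments were present beside the alpha and beta constant genes. Trdc, the delta chain constant segment, was 53.6 and 54.1 CPM in replicate 1 of the d9 groups without and with acetate, against 29.3 to 32.5 CPM in the other d9 libraries and 23.9 to 32.7 CPM at d5. Trbv12-1 was 727 and 471 CPM in the same 2 libraries, against 164 to 252 CPM in the other d9 libraries and 545 to 718 CPM at d5. The gamma constant segments Tcrg-C1, Tcrg-C2 and Tcrg-C4 were at most 2.02, 0.938 and 0.607 CPM in any library. Exons of Trdc overlap 96 bases of the antisense gene Gm43434 and 207 bases of Trdv5 on the opposite strand.

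Within the CD3 chains the ratio of Cd3e to Cd3d per kilobase of exon, chosen after its values were seen, was 0.240 to 0.300 at d5 without acetate, 0.141 to 0.180 at d5 with acetate, 0.0794 to 0.168 at d9 without acetate and 0.0802 to 0.187 at d9 with acetate. The lowest values at d9 were those of the 2 libraries that stood apart.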
